A study of Homo sapiens with 6 samples.

Results

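The genes described here are 6 that make or sense the mediators of inflammatory pain: *PTGS1*, *PTGS2*, *PTGES* and *PLA2G4A*, which act in prostaglandin synthesis, and *BDKRB1* and *BDKRB2*, the receptors for bradykinin and related kinins. They were chosen by name, in part because earlier results on these libraries were known, so their levels, fitted changes and calls are given as a description, with no p-value. Of the 6 genes, 3 had a row among the 17222 gene names of the count table: *BDKRB1*, *BDKRB2* and *PTGS1*. All 3 were among the 14660 genes that passed the filter on low counts and were tested. *PTGS2*, *PTGES* and *PLA2G4A* were not analysed here, so the set covers both kinin receptors and only 1 of its 4 synthesis genes.

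The libraries came from H226, an established cell line from a squamous lung carcinoma, collected 48 h after transient transfection with an antisense oligonucleotide (ASO), a short synthetic strand that directs the degradation of the RNA it pairs with. The ASO_CTRL group (n = 3) received a control oligonucleotide, and the ASO_LINC group (n = 3) received ASO_LINC#3, directed against the long noncoding RNA *SWINGN*. The comparison asks which transcripts depend on *SWINGN*, a partner of the SWI/SNF chromatin remodelling complex. It rests on 1 targeting oligonucleotide in 1 cell line, and the *SWINGN* row was not analysed here, so its depletion could not be checked in these libraries. Reads assigned to genes ranged from 3686828 in ASO_LINC replicate 3 to 10546786 in ASO_CTRL replicate 3. Of 8 squamous markers, 3 had a row, *KRT5*, *KRT6A* and *IVL*. Their summed level was 96.3 to 119 CPM in ASO_CTRL and 65.9 to 89.0 CPM in ASO_LINC, most of it *KRT5*. CPM is the count of a gene scaled to a fixed library size. The mean of *KRT5* was 103 CPM in ASO_CTRL and 68.8 CPM in ASO_LINC. The others were scarce and went the other way, *IVL* from 1.86 to 5.7 CPM and *KRT6A* from 0.03 to 1.33 CPM. All 8 markers of simple epithelium and mesothelium had a row, and their summed levels were 12375 to 13442 CPM and 7295 to 12725 CPM, most of it *KRT7*, *KRT8*, *KRT18* and *KRT19*. The mesothelial marker *CALB2* fell from a mean of 600 CPM in ASO_CTRL to 154 CPM in ASO_LINC, a log2 fold change of -1.97 (SE 0.21). *MSLN*, *WT1* and *UPK3B*, at means of 29.0, 45.9 and 49.3 CPM in ASO_CTRL, had log2 fold changes of 0.06, -0.32 and -0.92. Of 8 blood and vessel markers 2 had a row, *CD68* and *CD14*, which together reached 2.55 to 3.6 CPM in ASO_CTRL and 3.52 to 8.65 CPM in ASO_LINC.

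Prostaglandins are made from arachidonic acid, which phospholipase A2 enzymes such as the *PLA2G4A* product release from membranes. The cyclooxygenases encoded by *PTGS1* and *PTGS2* turn it into an unstable endoperoxide, and terminal synthases such as the *PTGES* product convert that into the individual prostanoids. Kinins act through a pair of G protein-coupled receptors: B2, encoded by *BDKRB2*, is constitutive in many tissues and binds bradykinin itself, while B1, encoded by *BDKRB1*, prefers kinins that have lost their last arginine and is known for its induction by inflammatory cytokines. Signalling by either receptor mobilises calcium and can release arachidonic acid, which links the kinin and prostaglandin systems.

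The receptor genes lie side by side on chromosome 14, and the 250 bases before each start site are shown because the neighbours differed widely in level. RefSeq, on the GRCh38.p14 build, places the *BDKRB2* promoter at chr14:96204589-96204838 and the *BDKRB1* promoter at chr14:96255960-96256209, both on the plus strand. Capitals mark an octamer present in both, TGACATCA.
BDKRB1: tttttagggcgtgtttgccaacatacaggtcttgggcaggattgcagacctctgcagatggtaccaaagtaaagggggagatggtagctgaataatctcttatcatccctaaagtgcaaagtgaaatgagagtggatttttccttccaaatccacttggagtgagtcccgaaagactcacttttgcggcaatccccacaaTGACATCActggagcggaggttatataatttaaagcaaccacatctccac
BDKRB2: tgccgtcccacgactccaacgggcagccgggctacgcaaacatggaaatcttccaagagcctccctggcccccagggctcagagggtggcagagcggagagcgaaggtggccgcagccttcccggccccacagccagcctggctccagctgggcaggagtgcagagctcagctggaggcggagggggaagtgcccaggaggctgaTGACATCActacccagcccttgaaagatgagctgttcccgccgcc
The *BDKRB2* window had a GC content of 66.4% and that of *BDKRB1* 44.8%. The longest run that the sequences shared, ATGACATCACT, spans 11 bases. It begins 51 bases before the *BDKRB1* start and 46 bases before the *BDKRB2* start. These starts are those of RefSeq, and gene starts in other annotations can differ and were not compared. The octamer within it was picked after the sequences had been read, and 2.37% of 35116 RefSeq promoter windows of the same length hold it on either strand. It resembles the cyclic AMP response element TGACGTCA, which neither window holds and which 1.65% of windows do. Neither window held the AP-1 motif TGANTCA (6.57% of windows), the exact letters TATAAA (10.7%) or the NF-kB consensus (5.21%), searched on both strands. Other spellings of these motifs were not searched, and the *BDKRB1* window does hold TATATAA between its octamer and its start. These matches describe letters only, and no factor binding was measured in these libraries.

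*BDKRB1* was the abundant member and the one that differed most between the groups. Its level in CPM was 162, 155 and 160 in ASO_CTRL replicates 1, 2 and 3 (1207, 903 and 1680 reads). In ASO_LINC replicates 1, 2 and 3 it was 75.8, 61.8 and 95.2 CPM (517, 362 and 352 reads). All ASO_LINC libraries lay below all ASO_CTRL libraries, and the lowest control was above the highest ASO_LINC library by more than the spread within either group. The means were 159 ± 3.66 CPM and 77.6 ± 16.8 CPM (SD, n = 3 per group), so ASO_LINC libraries held 48.8% of the control level. The fitted log2 fold change was -1.04 (SE 0.16, 95% interval -1.39 to -0.69). Relative to the mean of the control libraries, the ASO_LINC libraries differed by -1.07, -1.36 and -0.74 on the log2 scale, the smallest shift being in replicate 3, which was also the library with the fewest reads. The spread was wider after knockdown, with a coefficient of variation of 21.6% against 2.30% among the controls. Among the 14660 genes tested, the mean CPM of *BDKRB1* ranked 1117th in ASO_CTRL and 2383rd in ASO_LINC.

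*BDKRB2* was close to the limit of detection in both groups. Its counts were 23, 12 and 39 reads in ASO_CTRL and 19, 23 and 7 reads in ASO_LINC. Scaled, these gave 3.09, 2.06 and 3.71 CPM against 2.79, 3.93 and 1.89 CPM. The groups overlapped, with the highest and the lowest library both in ASO_LINC. The means were 2.95 ± 0.834 CPM and 2.87 ± 1.02 CPM (SD, n = 3 per group), and the log2 fold change was -0.04 (SE 0.34). Its 95% interval, -0.78 to 0.70, leaves room for a change of either sign, so a difference was not detectable at this depth. The 7 reads of ASO_LINC replicate 3 alone have an exact Poisson 95% interval of 2.81 to 14.4 reads, which covers counting error only.

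*PTGS1*, which encodes the constitutive cyclooxygenase COX-1, was also scarce. Its counts were 20, 13 and 15 reads in ASO_CTRL and 24, 17 and 15 reads in ASO_LINC. After scaling for depth these were 2.69, 2.23 and 1.43 CPM against 3.52, 2.90 and 4.06 CPM. The groups did not overlap, although the closest libraries, ASO_CTRL replicate 1 and ASO_LINC replicate 2, were separated by less than the SD of either group. The means were 2.12 ± 0.638 CPM and 3.49 ± 0.578 CPM (SD, n = 3 per group), with a log2 fold change of 0.74 (SE 0.32, 95% interval 0.02 to 1.45).

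A gene was called when edgeR's quasi-likelihood test gave a Benjamini-Hochberg adjusted p below 0.01 and the log2 fold change, up or down, exceeded 0.5. By that rule 7.55% of all tested genes were called, 4.92% higher and 2.63% lower in ASO_LINC. Of the 3 members 1 was called, *BDKRB1*, and since the members were chosen with this comparison known, nothing is read from that count. *BDKRB1* no longer met the rule without ASO_CTRL replicate 3, where its log2 fold change was -1.04, or without ASO_LINC replicate 1, where it was -1.02. The 2 groups did not overlap in CPM for 2 of the 3 members, *BDKRB1* and *PTGS1*, against 36.1% of all tested genes. In a bulk sample, fewer cells with a transcript and less of it per cell cannot be told apart.

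**Figure D1:**
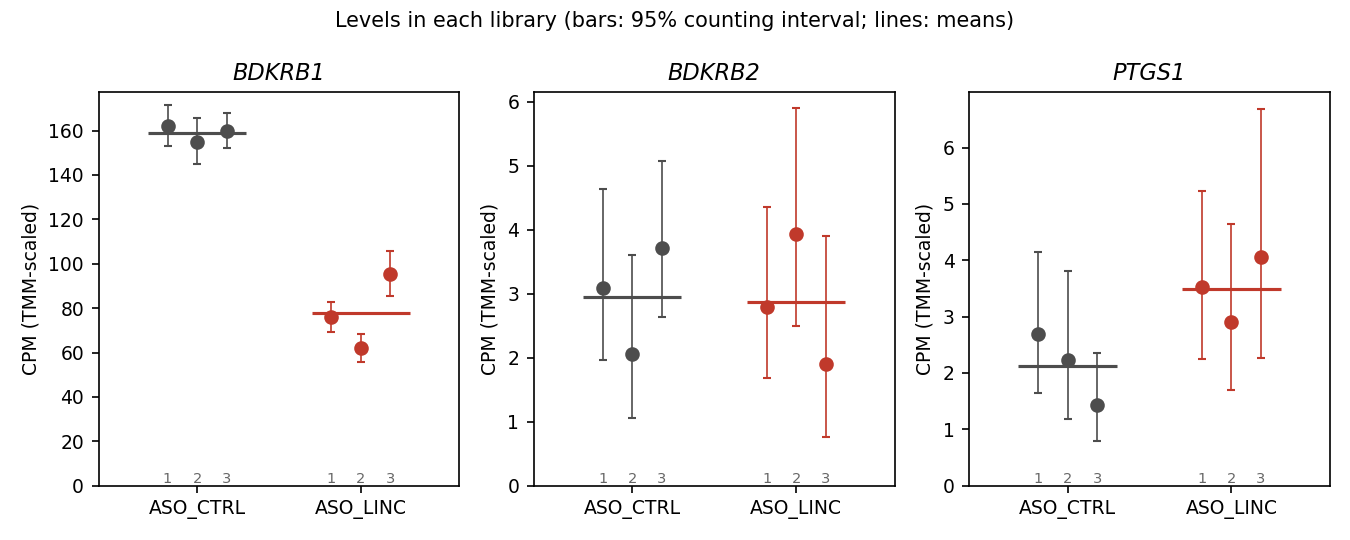
Level of each member in each library, in CPM on a linear axis that starts at 0, with 1 panel per gene and its own scale. Points are the 3 ASO_CTRL and 3 ASO_LINC libraries, bars their exact 95% Poisson counting intervals and horizontal lines the group means. *BDKRB1* drops from 159 to 77.6 CPM without overlap of the groups, while *BDKRB2* and *PTGS1* stay under 5 CPM.

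Levels were set on a common scale between the genes by dividing CPM by the kilobases of annotated exon, which is a coarse scale here because the cDNA was primed with oligo-dT. In ASO_CTRL, *BDKRB1* stood at 67.0 ± 1.54 CPM per kb, *BDKRB2* at 0.432 ± 0.122 and *PTGS1* at 0.366 ± 0.110 (SD, n = 3). In ASO_LINC the same levels were 32.7 ± 7.07, 0.419 ± 0.149 and 0.604 ± 0.0998 CPM per kb. The B1 receptor transcript was therefore the highest of the members in every library, while *BDKRB2* and *PTGS1* overlapped in both groups, so their order is not resolved. The ratio of *BDKRB1* to *BDKRB2* per kb was 151, 217 and 124 in the control libraries and 78.5, 45.4 and 145 in ASO_LINC. The groups overlap through ASO_LINC replicate 3, which had both the fewest *BDKRB2* reads and the highest *BDKRB1* level of its group. In each library B1 made up most of the kinin receptor reads, from 94.0% to 98.7%.

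In GRCh37, the build of the submitters' alignment, *BDKRB2* (ENSG00000168398) occupies chr14:96671016-96710503 and *BDKRB1* (ENSG00000100739) chr14:96722547-96735304, both on the plus strand and 12043 bases apart. *PTGS1* (ENSG00000095303) lies on chr9:125132809-125157982, also on the plus strand. A readthrough gene model (ENSG00000258691) overlaps both receptors, and an antisense long noncoding RNA (ENSG00000258793) overlaps *BDKRB1*. *BDKRB2* is also overlapped by a long noncoding RNA (ENSG00000258412) and the pseudogene *CKS1BP1* on its strand. Another long noncoding RNA (ENSG00000259036) overlaps *BDKRB2* on the opposite strand. None of these models has a row under the identifier given, but a row under another name was not excluded. Whether the reads were counted by strand is not given in the sources used here. How many *BDKRB1* and *BDKRB2* reads belong to these models, or were left out because of them, is therefore uncertain. The ratio of the receptors and the share of B1 carry the same limit.

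No call was made at the genes beside *BDKRB1*, which were few, in part scarce and in part far from it. Of its nearest neighbours with a row whose name matches a single annotated locus, 3 on each side, *BDKRB2* is described above, and the other 5 (*GLRX5*, *C14orf132*, *ATG2B*, *GSKIP* and *PAPOLA*) had log2 fold changes of -0.39 to 0.38. Their distances from *BDKRB1* were 10227 bases for *ATG2B*, 94484 for *GSKIP*, 162238 for *C14orf132*, 232465 for *PAPOLA* and 711485 for *GLRX5*. The small nucleolar RNA name snoU13 also has a locus nearby, but many loci share that name and its row could not be placed. By edgeR's quasi-likelihood test 0 of the 5 were called and 0 had an unadjusted p below 0.05, and DESeq2 and limma-voom also called 0. Around *PTGS1*, 0 of 6 neighbours were called by edgeR and 0 by limma-voom, 4 had an unadjusted p below 0.05 and DESeq2 called 1 (*MRRF*), with log2 fold changes from -0.60 to 0.77 over the 6.

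**Figure D2:**
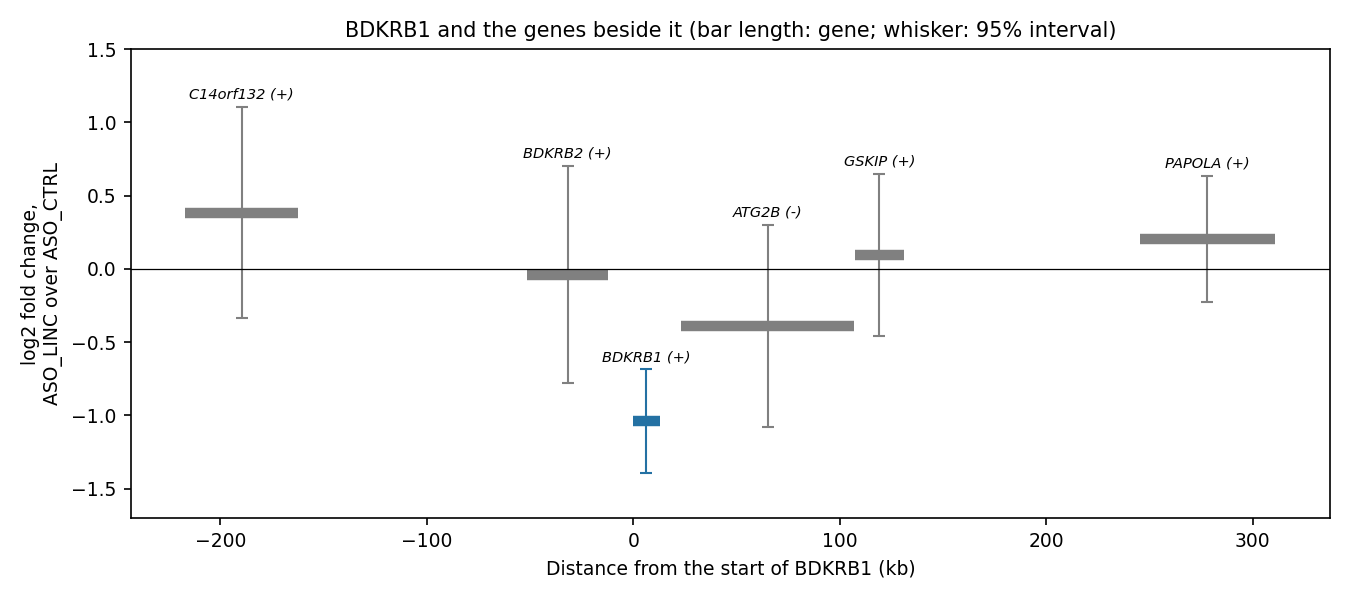
Log2 fold change (ASO_LINC over ASO_CTRL) of *BDKRB1* and nearby genes, plotted against the distance from the *BDKRB1* start in kilobases. Horizontal bars span each gene and whiskers are 95% intervals from the edgeR fit. *GLRX5*, 711485 bases away, is not drawn. The interval of *BDKRB1* lies wholly below 0, from -1.39 to -0.69, and those of the neighbours drawn include 0.

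The genes whose changes over the 6 libraries lay closest to those of *BDKRB1*, by the root mean square (RMS) difference of log2 changes among 10220 genes with a mean of at least 50 reads, were *AC004069.2*, *SLC9A3R1* and *RAB17*. Their RMS differences were 0.0819, 0.0897 and 0.0898. *SLC9A3R1* encodes the scaffold protein NHERF1 and *RAB17* an epithelial small GTPase. Their log2 fold changes were -1.04 for *AC004069.2*, -1.10 for *SLC9A3R1* and -1.05 for *RAB17*, each with the smallest shift in ASO_LINC replicate 3, as in *BDKRB1*. They were selected for this likeness, so the closeness is a description.

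The rest of the prostanoid and kinin pathways, with regulators of *PTGS2* and *BDKRB1* mRNA, was followed in 8 lists of 136 genes, ordered by role. Rows existed for 96 of these genes and 88 were tested. Of the 88, 20 were called higher and 5 lower, 28.4% against 7.55% of all tested genes. Their median log2 fold change was 0.14, against -0.003 over all tested genes. The regulator list, which holds cytokines and transcription factors of wide action, gave 11 of these calls from 22 tested genes. All lists were chosen with earlier results of these data known, so these shares are a description. Without ASO_LINC replicate 3 the number called over the 8 lists was 34, when the share of all genes called was 17.2%. With any other library left out the number over the lists fell to as few as 10, without ASO_CTRL replicate 3.

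Upstream of *PTGS1*, 13 genes listed for the release of arachidonic acid from membranes or its return to them were tested. Of these, 1 was called higher and 1 lower (median log2 fold change -0.31). The list mixes opposed roles, so its median gives no direction of supply. *PLA2G12A*, a secreted phospholipase A2, fell from 105, 110 and 122 CPM in ASO_CTRL to 45.6, 45.1 and 44.9 CPM in ASO_LINC, a log2 fold change of -1.31 (SE 0.13, edgeR adjusted p = 0.000115). The 3 ASO_LINC libraries were nearly equal and far below the controls. *MGLL*, the monoglyceride lipase that frees arachidonic acid from 2-arachidonoylglycerol, rose from 61.9 ± 2.27 to 127 ± 18.2 CPM (log2 fold change 1.04, edgeR adjusted p = 0.000816), and just missed the threshold without ASO_CTRL replicate 3 (adjusted p = 0.0104).

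Downstream of the cyclooxygenases, 6 other synthases were tested and 1 was called, *PTGIS*, which makes prostacyclin. *PTGIS* was at 352, 353 and 397 CPM in ASO_CTRL and 234, 230 and 216 CPM in ASO_LINC, with no overlap, and fell by 0.70 on the log2 scale (SE 0.12, edgeR adjusted p = 0.00312). That call was lost when any library but ASO_LINC replicate 3 was left out, with adjusted p from 0.0113 to 0.0265 and log2 fold changes of -0.73 to -0.64. *PTGES2*, a membrane-associated prostaglandin E synthase, split the ASO_LINC group, with 20.1 and 22.0 CPM in replicates 1 and 2 but 55.2 CPM in replicate 3, against 37.7 to 48.1 CPM in ASO_CTRL. It was not called with all libraries (log2 fold change -0.45, edgeR adjusted p = 0.366), and without ASO_LINC replicate 3 it was called at -1.03 (adjusted p = 0.000359). Without that library 4 of 7 synthases were called, all lower: *PTGIS*, *PTGES2*, *FAM213B* (a prostamide and prostaglandin F synthase) and *AKR1B1* (an aldo-keto reductase with prostaglandin F synthase activity). *PTGES3*, the cytosolic prostaglandin E synthase that doubles as the p23 co-chaperone, stood at 457 ± 78.0 and 444 ± 18.8 CPM, and its reads are uncertain because pseudogene copies also have rows. *CBR1*, a carbonyl reductase, was not called, with a log2 fold change of 0.15.

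Of the prostanoid receptors, *PTGIR*, the prostacyclin receptor, was called and *TBXA2R*, the thromboxane receptor, was not. *PTGIR* had 36, 29 and 62 reads in ASO_CTRL and 108, 90 and 54 reads in ASO_LINC. In CPM these were 4.84, 4.98 and 5.90 against 15.8, 15.4 and 14.6, so each group was tight and the groups lay far apart. It rose by a log2 fold change of 1.53 (SE 0.19, edgeR adjusted p = 0.000468). The synthase and the receptor of prostacyclin thus moved in opposite directions. *TBXA2R* stood at 3.05 ± 0.463 and 2.76 ± 1.04 CPM (log2 fold change -0.18).

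Among 8 genes of prostaglandin transport and breakdown, 1 was called, *SLCO4A1*, an organic anion transporter, which rose from 4.11 ± 0.943 to 10.9 ± 2.78 CPM (log2 fold change 1.36, edgeR adjusted p = 0.00619). The *SLCO4A1* call was lost without any 1 of the ASO_CTRL replicates or without ASO_LINC replicate 1 (adjusted p from 0.0212 to 0.0338). *SLCO2A1*, the main prostaglandin uptake carrier, had 15.4 ± 1.19 and 9.15 ± 0.836 CPM and was not called (log2 fold change -0.76, edgeR adjusted p = 0.0148). The other 6, *ABCC4*, *SLCO3A1*, *PTGR1*, *PTGR2*, *ZADH2* and *CBR3*, were not called, with log2 fold changes between -0.31 and 0.43.

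The lipoxygenase branch competes with the cyclooxygenases for arachidonic acid, and 2 of its 8 tested genes were called, both higher. *ALOX5*, which encodes 5-lipoxygenase, had 6, 8 and 7 reads in ASO_CTRL and 37, 21 and 11 in ASO_LINC (log2 fold change 2.18, SE 0.38, edgeR adjusted p = 0.0038). *ALOX5AP*, which encodes its activating protein FLAP, had 3, 4 and 5 reads against 12, 16 and 14 (log2 fold change 2.33, SE 0.44, edgeR adjusted p = 0.00557). Both genes were scarce, and neither call held throughout: *ALOX5* lost it without ASO_CTRL replicate 1, ASO_CTRL replicate 3 or ASO_LINC replicate 1 (adjusted p from 0.02 to 0.0331), and *ALOX5AP* without any 1 of the ASO_CTRL replicates or ASO_LINC replicate 2 (0.0175 to 0.0403). Of the 6 not called, *ALOXE3*, *LTB4R* and *ALOX12B* had log2 fold changes of 1.27, 0.90 and 0.49, and *LTA4H*, *MGST3* and *GGT5* of -0.06, 0.25 and -0.31.

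**Figure D3:**
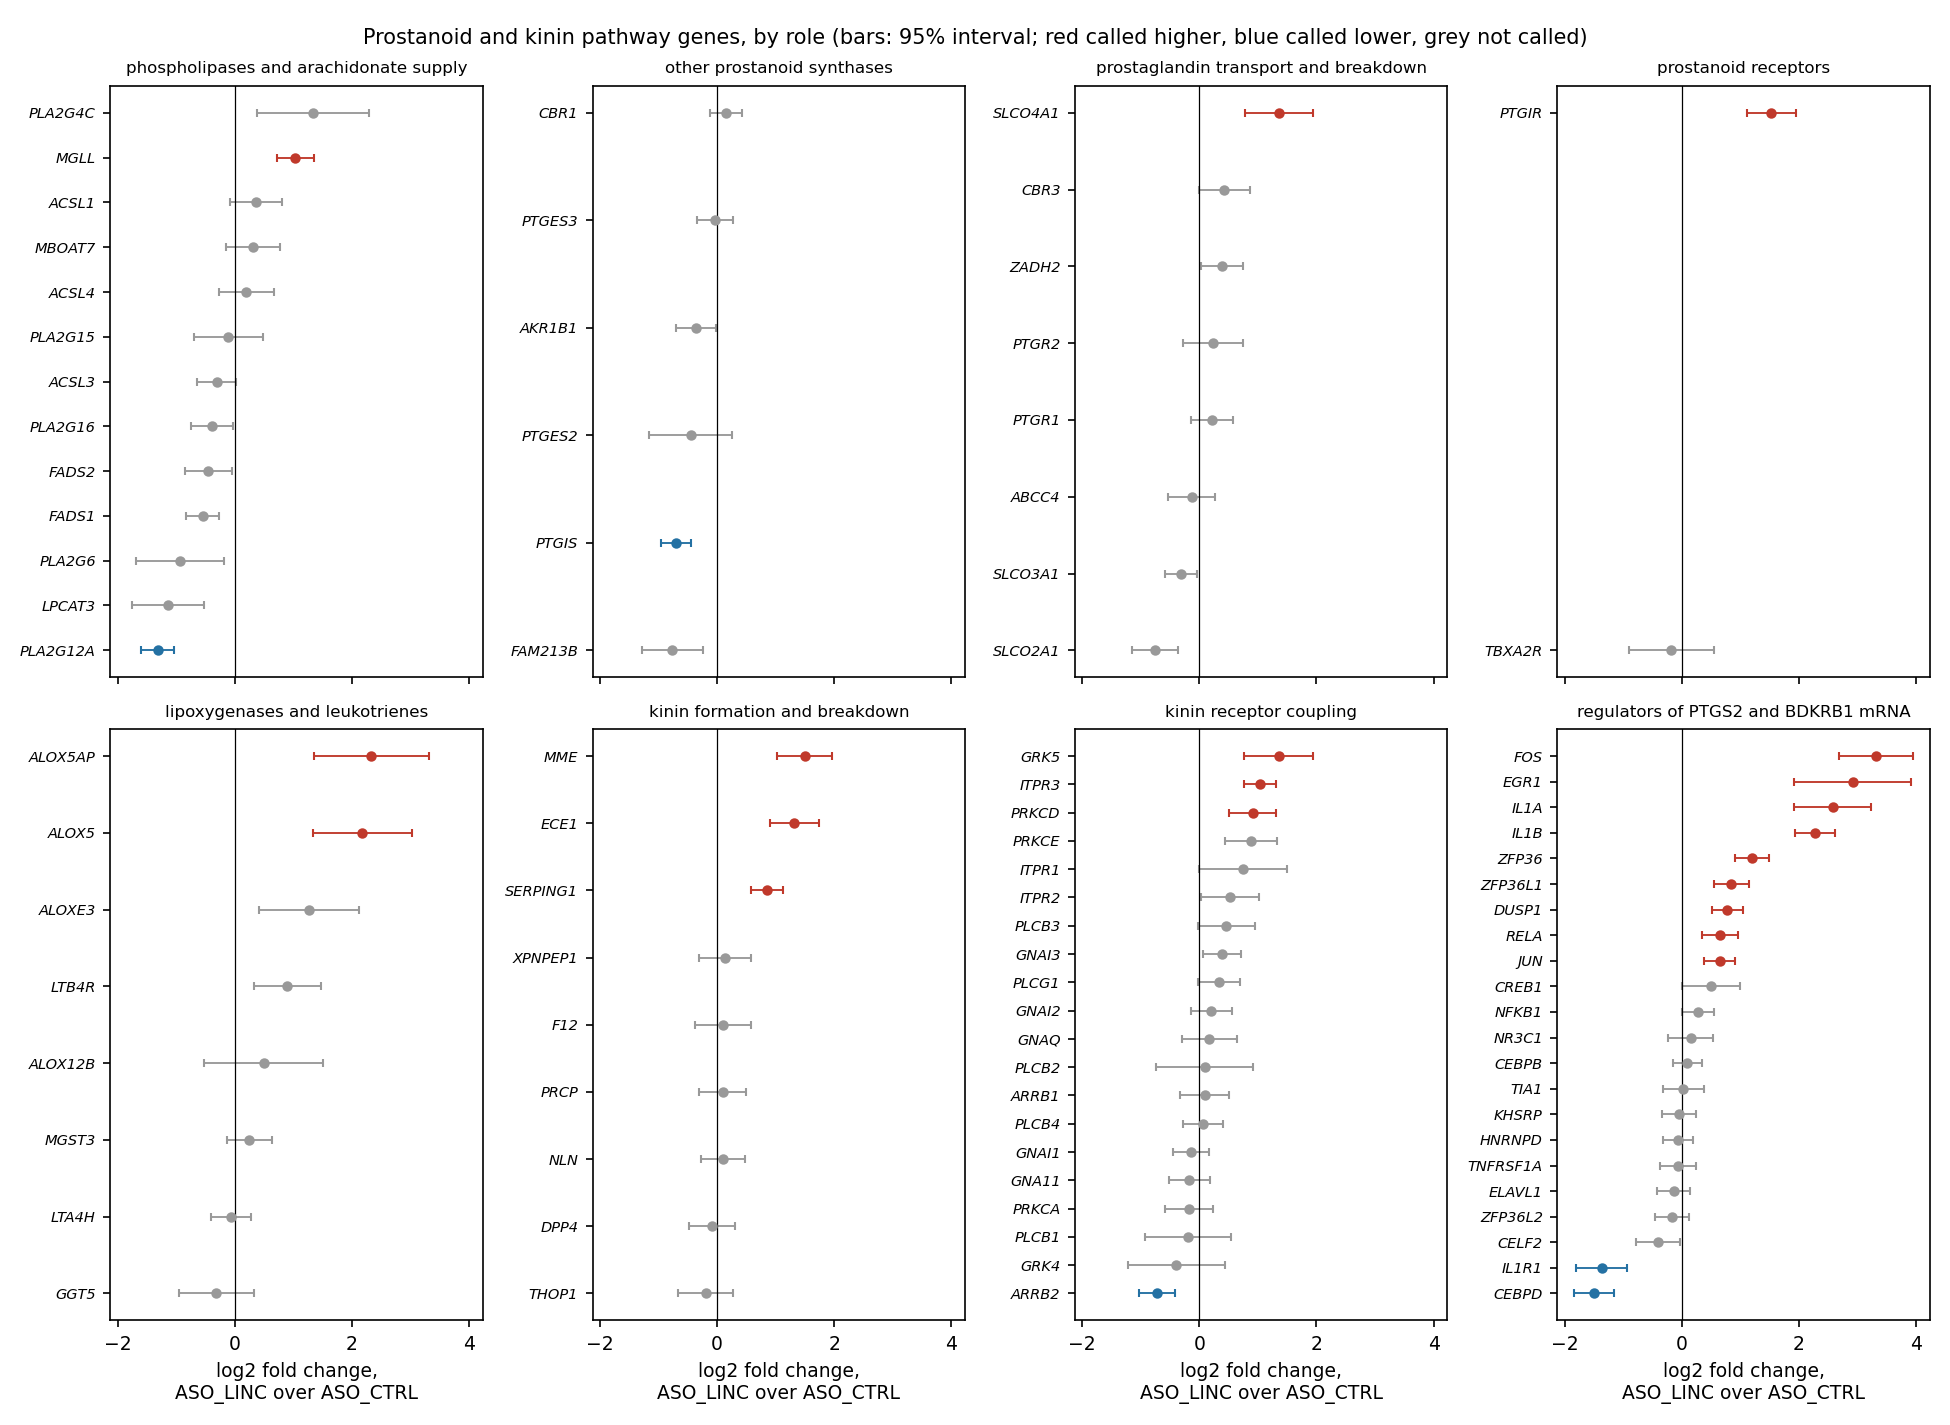
Log2 fold change (ASO_LINC over ASO_CTRL) of every tested gene of the 8 pathway lists, 1 panel per list. Points are edgeR estimates and bars 95% intervals, with genes called higher in red, called lower in blue and not called in grey. Called genes lie on both sides of 0, with 20 higher and 5 lower among 88.

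For the kinin ligands themselves, 9 genes of formation and breakdown were tested, and the 3 called were all higher. *MME*, or neprilysin, a membrane peptidase that cleaves bradykinin, went from 30.4, 20.6 and 28.8 CPM to 86.2, 85.4 and 53.5 CPM (log2 fold change 1.5, SE 0.21, edgeR adjusted p = 0.00105). *ECE1*, an endothelin-converting enzyme that also degrades bradykinin, rose from 17.96 ± 3.53 to 45.1 ± 7.62 CPM (log2 fold change 1.32, edgeR adjusted p = 0.00109). *SERPING1*, the C1 inhibitor that restrains kinin release by plasma kallikrein, rose from 173 ± 7.85 to 313 ± 29.1 CPM (log2 fold change 0.85, edgeR adjusted p = 0.00121). Without ASO_CTRL replicate 3, *ECE1* and *SERPING1* missed the threshold (adjusted p = 0.012 and 0.0148), whereas *MME* was called with any library left out. The remaining 6, *F12*, *PRCP*, *XPNPEP1*, *DPP4*, *THOP1* and *NLN*, had log2 fold changes from -0.20 to 0.14 and were not called.

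All 20 genes listed for coupling downstream of the kinin receptors were tested, and 3 were called higher and 1 lower. *ITPR3*, an inositol trisphosphate receptor that releases stored calcium, rose from 106 ± 8.70 to 215 ± 7.12 CPM (log2 fold change 1.03, edgeR adjusted p = 0.000406) and was called with any library left out. *PRKCD*, protein kinase C delta, rose by 0.91 and *ARRB2*, beta-arrestin 2, fell by 0.73 on the log2 scale, but either call held only with all libraries or without ASO_LINC replicate 3 (otherwise adjusted p from 0.0176 to 0.032 for *PRKCD* and 0.0197 to 0.0291 for *ARRB2*). The same was true of *GRK5*, a receptor kinase with a log2 fold change of 1.35, which was picked out after its values had been seen. The G protein alpha subunits *GNAQ*, *GNA11* and *GNAI1* to *GNAI3* and the phospholipases *PLCB1* to *PLCB4* were not called.

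Of 22 tested genes known to act on *PTGS2* or *BDKRB1* transcription or mRNA stability, 9 were called higher and 2 lower. The cytokine *IL1B*, a classical inducer of the B1 receptor, was at 101, 76.7 and 105 CPM in ASO_CTRL and 468, 500 and 401 CPM in ASO_LINC, a log2 fold change of 2.28 (SE 0.16, edgeR adjusted p = 1.58e-05). *IL1A* moved alike, from 8.72 ± 2.95 to 52.7 ± 17.8 CPM (log2 fold change 2.58, edgeR adjusted p = 0.000326). *IL1R1*, the receptor for both cytokines, moved the other way, from 15.8 ± 2.07 to 6.12 ± 0.387 CPM (log2 fold change -1.37, edgeR adjusted p = 0.00114), a call that was lost without ASO_LINC replicate 1 (adjusted p = 0.0105). *CEBPD*, a C/EBP transcription factor, fell from 410 ± 32.3 to 146 ± 28.1 CPM (log2 fold change -1.49, edgeR adjusted p = 0.000172). *FOS*, a subunit of AP-1, had 7, 14 and 23 reads in ASO_CTRL and 111, 114 and 75 in ASO_LINC (log2 fold change 3.32, SE 0.28, edgeR adjusted p = 5.37e-05). *BDKRB1* and *IL1R1* were thus lower in the same libraries in which *IL1A* and *IL1B* were higher, and any relation among them was not tested.

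**Figure D4:**
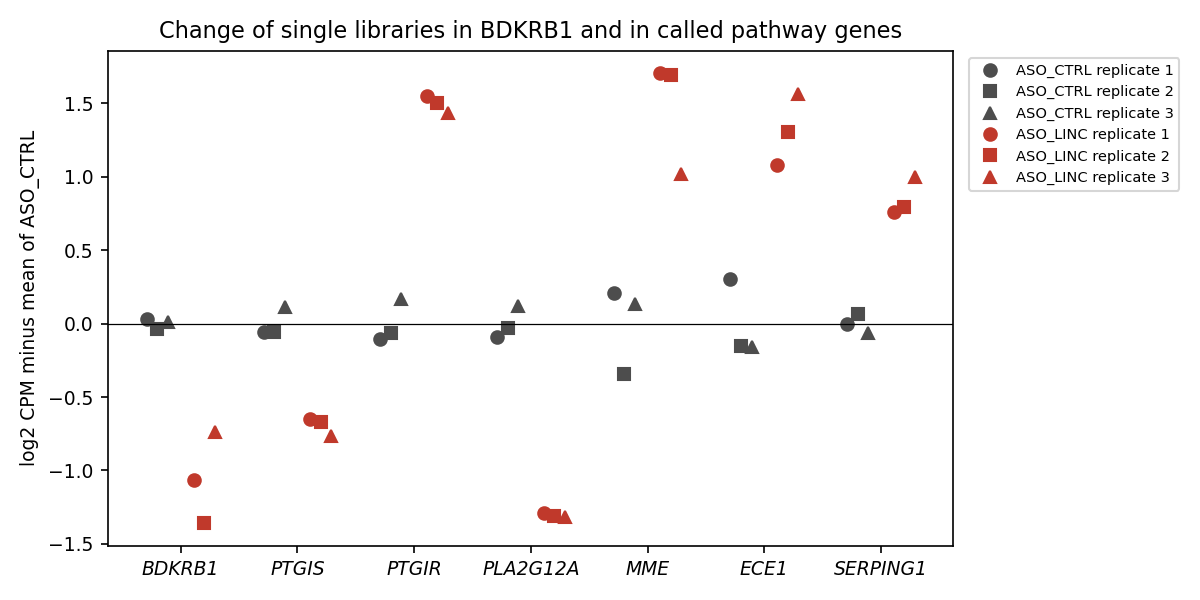
Change of each library on the log2 CPM scale, relative to the mean of the 3 ASO_CTRL libraries, for *BDKRB1* and called genes of the pathway lists. Colours and symbols mark the group and the replicate. For *BDKRB1* the 3 ASO_LINC libraries lie at -1.07, -1.36 and -0.74, all below the controls.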

How the data were processed

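RNA-seq libraries of H226 cells, 3 per group, were analysed from the deposited table of raw counts per gene, which the authors made, per the labels, by alignment to hg19 with STAR; the counter, its strand setting and the tool versions are not given in the sources used here. The study's methods name BJ fibroblasts for this assay. Its results text, its figure legend and the labels name H226, which was followed here. The labels do not say whether replicates were separate cultures, so p-values measure the spread between these samples. Rows that name no gene, 24.8% to 28.1% of each library's total, entered neither the library sizes nor the tests. Counts were filtered with filterByExpr, TMM-scaled and tested across all genes with edgeR 4.0.16 (quasi-likelihood F-test, Benjamini-Hochberg adjustment) in R 4.3.3. CPM of single libraries are TMM-scaled, and log2 changes of single libraries used a prior count of 2. Libraries of a group differed beyond sampling noise in every pair (chi-square per degree of freedom 2.50 to 14.0). Alternatives used limma 3.58.1, DESeq2 1.42.0, other scalings, filters and thresholds, and left out each library in turn. Replicate numbers were not treated as pairs. Coordinates and exon lengths came from GENCODE lifted to GRCh37, and promoters from RefSeq, where both receptors matched by symbol.

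Members and pathway lists were chosen with earlier results of these data known. The genes named were the members, called genes of each list with a mean of at least 50 reads (at most the 5 with the largest change), all tested genes of lists with at most 10 tested, and the 3 genes most like a member that changed by more than 1 on the log2 scale. Marker genes, neighbours of the members and coupling genes that were not called were named after their values had been seen. On simulated data the fit made no false call when the spread followed the trend over all genes, but with gene-specific spread the share of false calls exceeded the nominal level of the adjusted p.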

Additional observations from a re-analysis of the deposited data

Results flagged for a closer look

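The share of each library's total that was listed as not aligned, a row that enters none of the comparisons, was above the control level in all ASO_LINC libraries. It was 15.99%, 16.41% and 15.76% in ASO_LINC replicates 1, 2 and 3, against 13.23%, 14.13% and 13.7% in ASO_CTRL replicates 1, 2 and 3. Its part in the lower *BDKRB1* level was not tested.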

How the results depend on the processing

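*BDKRB1* stayed lower in ASO_LINC under every alternative run, with log2 fold changes of -1.207 to -0.8981 when 1 library was left out and -1.07 to -1.02 otherwise, and *PTGS1* stayed higher, between 0.47 and 0.97. *BDKRB2* ran from -0.3175 to 0.1727 with 1 library left out and changed sign in 3 of those 6 fits, and it has no value where 10 counts were required in every library. The number of members called was 0 with glmTreat against a log2 fold change of 0.5, and 0 to 1 with 1 library left out. The number of all genes called was 1107, and became 384 with glmTreat, 2465 at an adjusted p below 0.05, 1597 with DESeq2 and 359 to 2614 with 1 library left out, the highest without ASO_LINC replicate 3, when calls were 54.63% higher against 65.13% with all libraries. Of the pathway genes, 25 were called, 12 with glmTreat and 10 to 34 with 1 library left out. With the replicate number as a block 658 genes were called, *BDKRB1* among them, while *PTGIS*, *PRKCD*, *ARRB2* and *GRK5* were not (adjusted p = 0.0161, 0.0189, 0.0225 and 0.0167). Same-numbered libraries did not deviate together (correlations 0.059, -0.149 and -0.18). Deviations were taken from the mean of each group of 3, which ties them to each other, so these correlations cannot exclude a pairing. Log2 fold changes that changed sign with 1 library left out were those of *PTGES3* (-0.1242 to 0.1142), *LTA4H* (-0.1753 to 0.09393), *TBXA2R* (-0.4008 to 0.08118), *ALOX12B* (-0.03507 to 0.8285), *F12* (-0.007239 to 0.2521), *XPNPEP1* (-0.001256 to 0.3045) and *DPP4* (-0.1911 to 0.1077). The causes were not tested. Depth limits *BDKRB2* and *PTGS1*, at 7 to 39 reads per library.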
